A study of Mus musculus with 4 samples.

Results

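The genes described here encode the machinery by which muscle takes up fatty acids and burns them in mitochondria. They are a fixed list of 32 genes chosen by their known roles, though with earlier results of these data known. The list has 5 groups: uptake and lipolysis (7 genes), the carnitine shuttle (4), beta-oxidation (12), electron transfer (3) and regulators (6). Of these, 31 had a row among the 17904 genes of the deposited table, Dci (now Eci1) and Peci (now Eci2) under those older names, and Hadha was not analysed here. They were measured on Illumina Ref-8 bead arrays in quadriceps muscle of 2 Lin28a transgenic (Tg) and 2 wild-type (WT) males, all of the CD-1 strain and 5 weeks old. Lin28a encodes an RNA-binding protein that blocks maturation of the let-7 microRNAs. The promoter that drives the transgene is not given in the sources used here, and the labels number the mice without saying more of their origin, and the p-values below therefore speak of these 4 samples, whose spread may be technical.

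Fatty acids reach a muscle fibre after lipoprotein lipase has released them from circulating triglyceride, or from the fibre's own lipid droplets by lipolysis. Inside the cell they are bound by carrier proteins, joined to coenzyme A, passed across the inner mitochondrial membrane as carnitine esters and shortened by repeated cycles of dehydrogenation, hydration, oxidation and thiolysis. The electrons of the dehydrogenation step pass through the electron transfer flavoprotein to the respiratory chain. Transcription of much of this machinery is driven by PPAR nuclear receptors and the PGC-1 coactivators, and it is typically higher in slow, oxidative fibres than in fast ones.

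No gene of the list passed the test, and the median difference over the list between Lin28a Tg and WT muscle was near 0. The members that lay farthest apart were Angptl4, an inhibitor of lipoprotein lipase, at 1.47 times the WT intensity in Lin28a Tg muscle, and Echs1, the short-chain enoyl-CoA hydratase, at 0.698 times. The 3 tested genes of the carnitine shuttle had positive differences and 9 of 10 tested beta-oxidation genes negative ones (53.4% of all genes tested were positive and 46.6% negative). For 3 of 3 and 8 of 10 of them the difference was smaller than the larger within-group gap between 2 arrays (73.1% of all genes). When 1 array was left out, 1 and 7 of them turned sign. The share of all genes that did so is not given here. Within the groups, 23 of 25 members were brighter on Lin28a Tg replicate 2 than on Lin28a Tg replicate 1.

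All 9 markers of fast and general skeletal muscle (such as Ckm, Acta1 and Myh4) exceeded background on all 4 arrays. Background is the level of a gene that gives no signal, and a gene was counted above it at an intensity over 90.2. The probe for Lin28a itself stayed below that level, at 86.4 and 88.0 in Lin28a Tg samples against 82.9 and 82.6 in WT samples, so the labels are not checked by it. Hepatocyte genes marked WT replicate 1: 10 of 12 markers exceeded background there, against 5 and 5 on the Lin28a Tg arrays and 2 on WT replicate 2. Their summed intensity was 1434 and 1824 on the Lin28a Tg arrays, 19553 on WT replicate 1 and 1481 on WT replicate 2, while Alb and Fgb were at background on all 4. Slow-fibre genes differed even more within groups than between them, summing to 1899 and 3853 on Lin28a Tg replicates 1 and 2, and 1531 and 9441 on WT replicates 1 and 2, with the slow myosin gene Myh7 and Tnni1 at background throughout. Many members are expressed in liver, fat and slow fibres as well, and differences are therefore also given below with arrays left out. In bulk muscle, fewer cells of a type and less RNA per cell cannot be told apart.

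**Figure D1:**
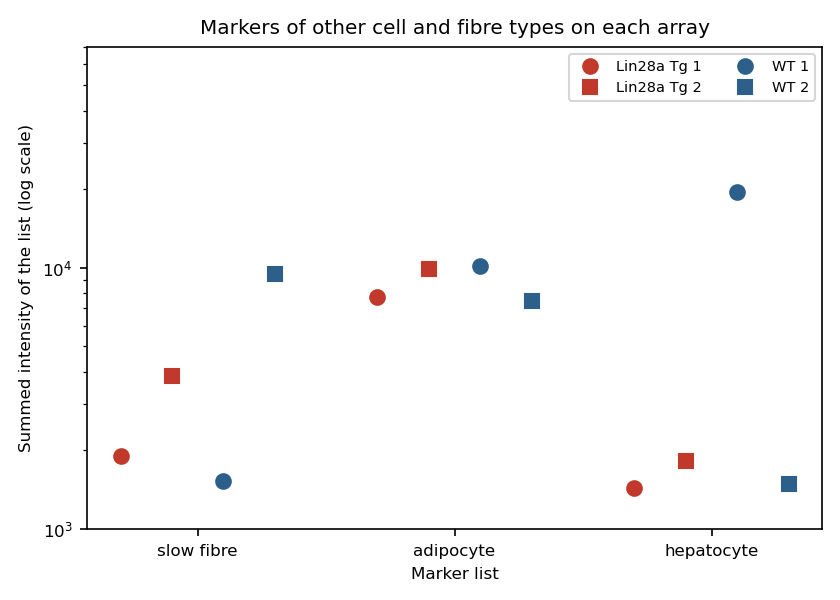
Summed deposited intensity (log axis) of 9 slow-fibre, 11 adipocyte and 12 hepatocyte marker genes on each array, with Lin28a Tg in red and WT in blue, circles for replicate 1 and squares for replicate 2. WT replicate 1 stands apart for hepatocyte genes at 19553, and WT replicate 2 is highest for slow-fibre genes at 9441.

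Of the 31 members with a row, 25 exceeded background on all 4 arrays and were tested. The other 6 gave no usable level: the fatty acid transporter Cd36, the liver form of the carnitine palmitoyltransferase Cpt1a, and the receptors Ppara and Ppard were below the threshold on all 4 arrays, while the hormone-sensitive lipase Lipe and the dehydrogenase Hadh exceeded it on 1 array each. Cd36 read 85.6 and 85.7 in Lin28a Tg samples against 84.4 and 85.0 in WT samples. Hadh had 2 rows, neither of them above 91.7 on any array. A reading at background limits what the probe shows and is no statement about the transcript.

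Across the 25 tested members, 12 had a higher and 13 a lower mean in Lin28a Tg than in WT muscle. The median log2 fold change (Lin28a Tg minus WT) was -0.0038, against 0.0080 over the 7821 genes tested. In limma's moderated test 0 of 25 members passed an adjusted p of 0.05, as did 0% of all genes, and adjusted p for the members ran from 0.486 to 0.998. At an unadjusted p under 0.05, Angptl4 was the 1 member higher in Lin28a Tg (5.06% of all genes were) and Echs1 the 1 member lower (3.85% of all genes). Both Lin28a Tg arrays lay above both WT arrays for 5 members, Angptl4, Acsl1, Slc25a20, Decr1 and Ucp3, which is 20% of the members against 21.7% of all genes. Both lay below for 2 members, Echs1 and Etfa, 8% of the members against 16.7% of all genes. After centring each array on its median, Slc25a20 and Ucp3 left the set of higher members, which then held 3 (19.1% of all genes).

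The 95% interval of the fold change lay inside a factor of 2 in either direction for all 25 tested members, and inside a factor of 1.5 for 20 of them. Of all 7821 genes tested, 7616 lay inside a factor of 2 and 7020 inside a factor of 1.5, so the members' intervals were not unusually narrow. The median standard error of a member's log2 fold change was 0.11, against 0.076 over all genes tested. The 5 members whose interval reached past 1.5 were Angptl4, Echs1, Fabp3, Pnpla2 and Acadvl. Background was not subtracted from these values, so that fold changes of dim genes are understated. After normexp background correction with an offset of 16, the log2 fold change was more than 1.5 times as large for Acsl1 (0.37), Decr1 (0.12), Etfdh (-0.20), Mlycd (0.12), Ucp3 (0.23), Peci (-0.083) and Ppargc1a (0.039).

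**Figure D2:**
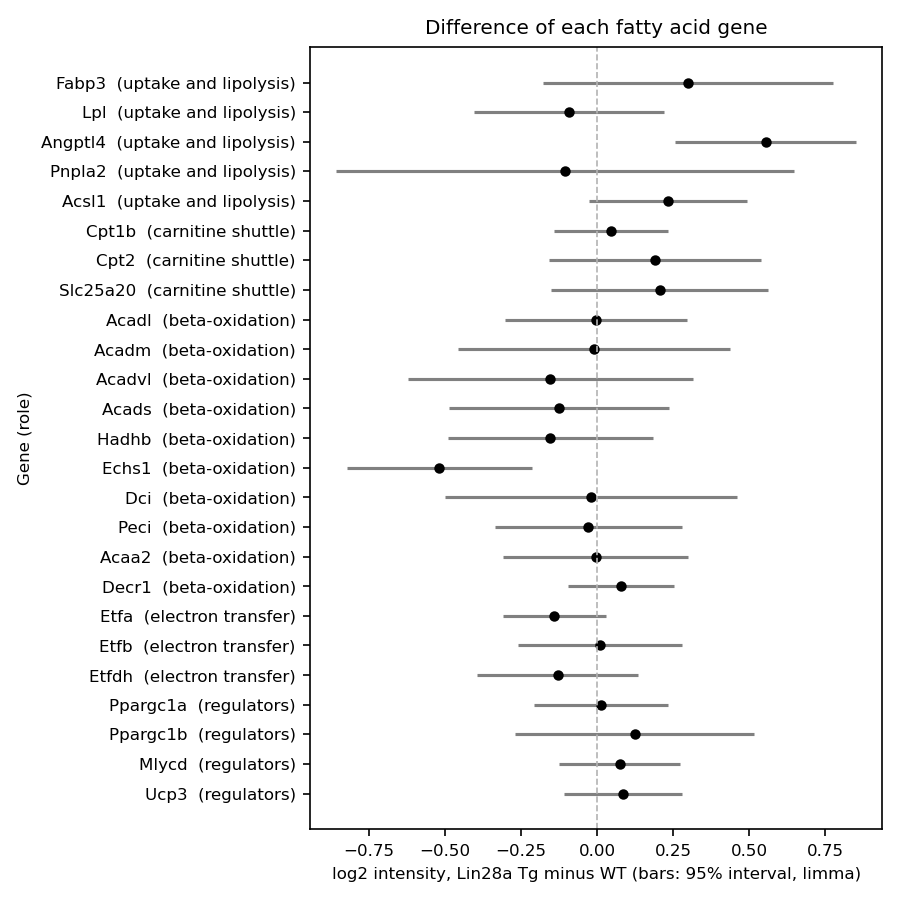
Difference in mean log2 intensity, Lin28a Tg minus WT, for each of the 25 tested genes (points) with its 95% interval from limma (bars), by role. The intervals of Angptl4 (0.26 to 0.85) and Echs1 (-0.82 to -0.22) leave out 0 and the other 23 include it. Of all 7821 genes tested, 7124 have an interval that includes 0.

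Among uptake genes, Angptl4 read 220.9 and 240.6 in Lin28a Tg samples, against 171.2 and 144.0 in WT samples. Both Lin28a Tg arrays lay above both WT arrays, and the log2 fold change of 0.55 (SE 0.11) had an adjusted p of 0.486 with limma. It stayed between 0.43 and 0.68 with any 1 array left out, and was 0.68 without WT replicate 1, the array that carries hepatocyte genes. Angptl4 gave the largest positive difference in the list. The gene is known to respond to fasting and to PPAR activity in muscle, fat and liver, and the part of either was not tested. The adipocyte markers, which include 11 genes such as Adipoq and Cfd with Retn at background, summed to 7720 and 9929 in Lin28a Tg samples and 10149 and 7438 in WT samples. The sums do not separate the groups, but Cfd alone makes up most of them (5435 and 6252 against 6543 and 5037). Of 9 tested markers 6 had a negative and 3 a positive difference (46.6% of all genes were negative). Cidec was lower in Lin28a Tg samples without overlap (90.3 and 85.7 against 118.7 and 101.9). The part of fat in the Angptl4 difference was not tested.

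Lipoprotein lipase, the enzyme that Angptl4 inhibits, gave no clear direction. Lpl ranged from 6445 to 7887 over the 4 arrays with the groups overlapping, and its log2 fold change was -0.092 (95% interval -0.40 to 0.22), which was 0.040 without Lin28a Tg replicate 1. Fabp3, the heart-type fatty acid binding protein that carries fatty acids through the cytosol, read 4384 and 5882 in Lin28a Tg samples, against 3787 and 4497 in WT samples. The groups overlapped, Lin28a Tg replicate 1 being below WT replicate 2, and the log2 fold change of 0.30 (SE 0.18) moved between 0.087 and 0.51 as arrays were left out.

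Acsl1, the long-chain acyl-CoA synthetase that activates fatty acids for oxidation, read 164.6 and 189.8 in Lin28a Tg samples, against 144.9 and 155.9 in WT samples. The groups did not overlap, with a log2 fold change of 0.23 (SE 0.096; adjusted p = 0.602 with limma), which was 0.13 without Lin28a Tg replicate 2 and 0.37 after normexp with an offset of 16. Pnpla2, the lipase that opens triglyceride hydrolysis in lipid droplets, showed the widest spread of the list. It ranged from 1091 on Lin28a Tg replicate 1 to 1885 on Lin28a Tg replicate 2, both WT arrays lying between them, and its log2 fold change turned from -0.50 without Lin28a Tg replicate 2 to 0.29 without Lin28a Tg replicate 1.

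All 3 tested genes of the carnitine shuttle had a positive difference (53.4% of all genes did), with a median log2 fold change of 0.19. Slc25a20, the translocase that exchanges acylcarnitine for carnitine across the inner membrane, read 400.7 and 508.3 in Lin28a Tg samples, against 382.1 and 400.6 in WT samples. The groups were separated only by the margin between Lin28a Tg replicate 1 and WT replicate 2, and the log2 fold change of 0.21 (SE 0.13) was 0.034 without Lin28a Tg replicate 2. Cpt2, which returns the acyl group to coenzyme A inside the mitochondrion, read 548.3 and 687.2 in Lin28a Tg samples, against 519.0 and 556.2 in WT samples, and overlapped. Its log2 fold change of 0.19 (SE 0.13) was likewise 0.029 without Lin28a Tg replicate 2. Cpt1b, the muscle form of the enzyme that commits fatty acids to oxidation, differed by 0.047 (95% interval -0.14 to 0.23) over a range of 373.7 to 409.0, and by -0.0073 without Lin28a Tg replicate 2.

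Beta-oxidation enzymes had a median log2 fold change of -0.025, with 9 of 10 tested members below 0 (46.6% of all genes) and 7 of 10 lowest on Lin28a Tg replicate 1 (23.2% of all genes). Of those 9, 7 turned positive when 1 array was left out: Acadvl, Acadl, Acadm, Acads, Acaa2, Dci and Peci. Echs1, which hydrates short enoyl-CoA chains and also acts in valine breakdown, read 518.4 and 597.0 in Lin28a Tg samples, against 855.4 and 743.5 in WT samples. Both Lin28a Tg arrays lay below both WT arrays, and the log2 fold change was -0.52 (SE 0.11; adjusted p = 0.506 with limma). It was -0.42 without WT replicate 1 and ran from -0.62 to -0.42 over the 4 fits that leave out 1 array.

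The acyl-CoA dehydrogenases, which start each cycle on chains of different length, lay closer to 0. The very long-chain enzyme Acadvl was at -0.15 (95% interval -0.62 to 0.31), the long-chain enzyme Acadl at -0.0038 (-0.30 to 0.30), the medium-chain enzyme Acadm at -0.0090 (-0.46 to 0.44) and the short-chain enzyme Acads at -0.13 (-0.49 to 0.24). All 4 overlapped between the groups. With 1 array left out their log2 fold changes ran from -0.39 to 0.084 for Acadvl, -0.12 to 0.11 for Acadl, -0.20 to 0.18 for Acadm and -0.27 to 0.020 for Acads. Acadm read 2877 and 3740 in Lin28a Tg samples against 3022 and 3605 in WT samples, so that each group held a low and a high array. Acads was highest on WT replicate 1, at 245.4, and lay between 189.4 and 218.0 on the other arrays; without WT replicate 1 its log2 fold change was 0.020.

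Hadhb, the thiolase subunit of the mitochondrial trifunctional protein, read 242.5 and 291.7 in Lin28a Tg samples, against 277.2 and 315.8 in WT samples. The groups overlapped at a log2 fold change of -0.15 (SE 0.12), which was -0.021 without Lin28a Tg replicate 1. The thiolase Acaa2 and the isomerases Dci and Peci, which shift double bonds of unsaturated fatty acids into place, lay at -0.0045, -0.021 and -0.029, and ran from -0.11 to 0.10, -0.23 to 0.19 and -0.17 to 0.11 as arrays were left out. Decr1, the dienoyl-CoA reductase that also serves unsaturated chains, was the 1 tested beta-oxidation gene above 0. It read 170.3 and 178.7 in Lin28a Tg samples, against 161.1 and 169.2 in WT samples, a log2 fold change of 0.079 (SE 0.065; 0.044 to 0.11 with 1 array left out) with the groups separated by a narrow margin.

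In the electron transfer group, Etfa, the alpha subunit of the flavoprotein, read 1543 and 1640 in Lin28a Tg samples, against 1754 and 1753 in WT samples. Both Lin28a Tg arrays lay below both WT arrays, by a log2 fold change of -0.14 (SE 0.063; adjusted p = 0.645 with limma) that ran from -0.18 to -0.096 as arrays were left out. Its partner Etfb, the beta subunit, differed by 0.0092 (95% interval -0.26 to 0.28), with the groups overlapping between 3344 and 3895, and ran from -0.10 to 0.12 as arrays were left out. Etfdh, the oxidoreductase that hands the electrons to ubiquinone, read 162.6 and 152.6 in Lin28a Tg samples, against 159.6 and 185.8 in WT samples, a log2 fold change of -0.13 (SE 0.098) that was -0.020 without WT replicate 2.

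**Figure D3:**
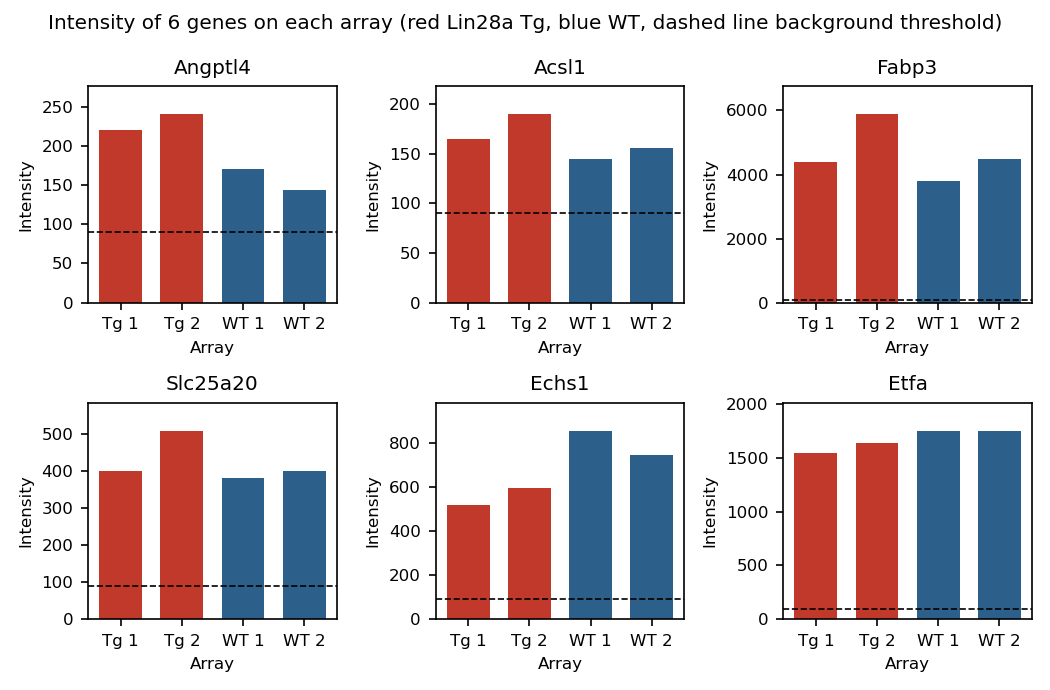
Deposited intensity of Angptl4, Acsl1, Fabp3, Slc25a20, Echs1 and Etfa on each array (bars from 0; red Lin28a Tg, blue WT), with the background threshold of 90.2 dashed. Angptl4, Acsl1 and Slc25a20 are higher and Echs1 and Etfa lower on both Lin28a Tg arrays than on both WT arrays, whereas Fabp3 overlaps. The margin of Slc25a20 is narrow, 400.7 on Lin28a Tg replicate 1 against 400.6 on WT replicate 2.

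Promoter windows from RefSeq (build GRCm38.p6, 250 bases before to 50 after the annotated start) were available for 26 of the 32 members, as 28 windows; Angptl4 had none. The sequences of 4 members without overlap between the groups are printed, 2 lower (Echs1 and Etfa) and 2 higher (Acsl1, the more upstream of its 2 windows, and Slc25a20) in Lin28a Tg muscle. Capitals mark 3 short motifs on either strand: AGGTCA, the core that PPAR, retinoid X and estrogen-related receptors bind, GGGCGG, the GC box, and CCAAT, where matches of GGGCGG may overlap each other. The windows lie on the minus strand at chr7:140116372-140116671 for Echs1 and chr9:55512194-55512493 for Etfa, and on the plus strand at chr8:46470787-46471086 for Acsl1 and chr9:108661886-108662185 for Slc25a20.
Echs1: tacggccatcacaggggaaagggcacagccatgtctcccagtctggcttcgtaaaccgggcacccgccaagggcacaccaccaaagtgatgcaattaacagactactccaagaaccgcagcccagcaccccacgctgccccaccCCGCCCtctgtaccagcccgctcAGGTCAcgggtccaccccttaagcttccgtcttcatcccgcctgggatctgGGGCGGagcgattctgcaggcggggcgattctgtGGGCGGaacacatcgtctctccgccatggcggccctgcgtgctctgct
Etfa: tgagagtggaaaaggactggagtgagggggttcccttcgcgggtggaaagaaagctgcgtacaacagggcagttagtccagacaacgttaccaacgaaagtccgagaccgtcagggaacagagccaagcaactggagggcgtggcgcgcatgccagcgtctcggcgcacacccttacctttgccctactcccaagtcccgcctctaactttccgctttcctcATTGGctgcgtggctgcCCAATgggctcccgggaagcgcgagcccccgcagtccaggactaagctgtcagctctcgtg
Acsl1: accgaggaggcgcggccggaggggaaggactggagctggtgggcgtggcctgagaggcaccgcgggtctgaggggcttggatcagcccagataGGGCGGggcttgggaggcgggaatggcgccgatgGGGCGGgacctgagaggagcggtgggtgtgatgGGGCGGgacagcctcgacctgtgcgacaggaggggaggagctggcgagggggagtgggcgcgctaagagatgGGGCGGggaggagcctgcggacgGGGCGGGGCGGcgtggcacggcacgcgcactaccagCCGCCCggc
Slc25a20: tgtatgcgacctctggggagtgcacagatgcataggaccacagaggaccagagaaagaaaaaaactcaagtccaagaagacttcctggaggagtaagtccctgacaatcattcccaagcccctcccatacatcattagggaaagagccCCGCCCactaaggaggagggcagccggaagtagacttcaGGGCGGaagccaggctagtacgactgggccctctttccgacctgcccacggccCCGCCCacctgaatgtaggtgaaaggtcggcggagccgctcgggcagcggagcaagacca

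The Echs1 window holds 1 AGGTCA and 3 GGGCGG, that of Etfa 2 CCAAT, that of Acsl1 7 GGGCGG and that of Slc25a20 3 GGGCGG. The GC box occurs in 19 of the 28 member windows (67.9%), against 35.7% of all 32851 windows, AGGTCA in 6 (21.4%, against 16.3%) and CCAAT in 10 (35.7%, against 37.4%). The direct repeat AGGTCANAGGTCA, the form that PPAR binds with retinoid X receptors, is in 0 member windows and in 0.0396% of all windows. Among the printed windows, the GC box is found in those of Acsl1 and Slc25a20 (higher in Lin28a Tg muscle) and Echs1 (lower), but not in that of Etfa (lower). Slc25a20 was higher without overlap only by a narrow margin, 400.7 on Lin28a Tg replicate 1 against 400.6 on WT replicate 2. The second Acsl1 window, not printed, holds 0 GGGCGG and 2 CCAAT. None of these genes passed the test. A match is a run of letters in this window and is not evidence of binding.

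The 4 regulators that could be read had small positive differences (53.4% of all genes were positive), and 2 of them turned sign when 1 array was left out. The PGC-1 coactivator genes Ppargc1a and Ppargc1b were at log2 fold changes of 0.013 (95% interval -0.21 to 0.23) and 0.12 (-0.27 to 0.52), both overlapping between the groups. Ppargc1a was at -0.069 and Ppargc1b at -0.0083 without WT replicate 1, and Ppargc1b was at -0.022 without Lin28a Tg replicate 2. Mlycd, which removes the malonyl-CoA that inhibits the muscle carnitine palmitoyltransferase, read 179.8 and 166.1 in Lin28a Tg samples, against 168.9 and 159.3 in WT samples, a log2 fold change of 0.075 (SE 0.074) that ran from 0.018 to 0.13 as arrays were left out. Ucp3, a mitochondrial carrier that muscle makes more of when fatty acid supply is high, read 93.5 and 102.3 in Lin28a Tg samples, against 92.9 and 91.5 in WT samples. Its groups did not overlap, but all 4 values lay close to the background threshold, and the log2 fold change of 0.085 (SE 0.072) was 0.019 without Lin28a Tg replicate 2.

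The members varied together more within the groups than between them. Of the 25, 23 were brighter on Lin28a Tg replicate 2 than on replicate 1 (92%, against 47.6% of all genes tested), Mlycd and Etfdh being the exceptions, with a median gap of 0.21 on the log2 scale against -0.0074 over all genes. Between the WT arrays, 17 of 25 were brighter on replicate 2 (68%, against 53.3%), with a median gap of 0.10. Both gaps ran the same way, replicate 2 over replicate 1, for 16 members (64%, against 26.2% of all genes). That count adds little to the 2 shares before it, and the 2 gaps correlated at only 0.21 over the 25 members. Genes of 1 pathway are not independent, so these shares describe the arrays and carry no test. The larger of the 2 within-group gaps exceeded the difference between the groups for 20 of 25 members (80%, close to the 73.1% of all genes).

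**Figure D4:**
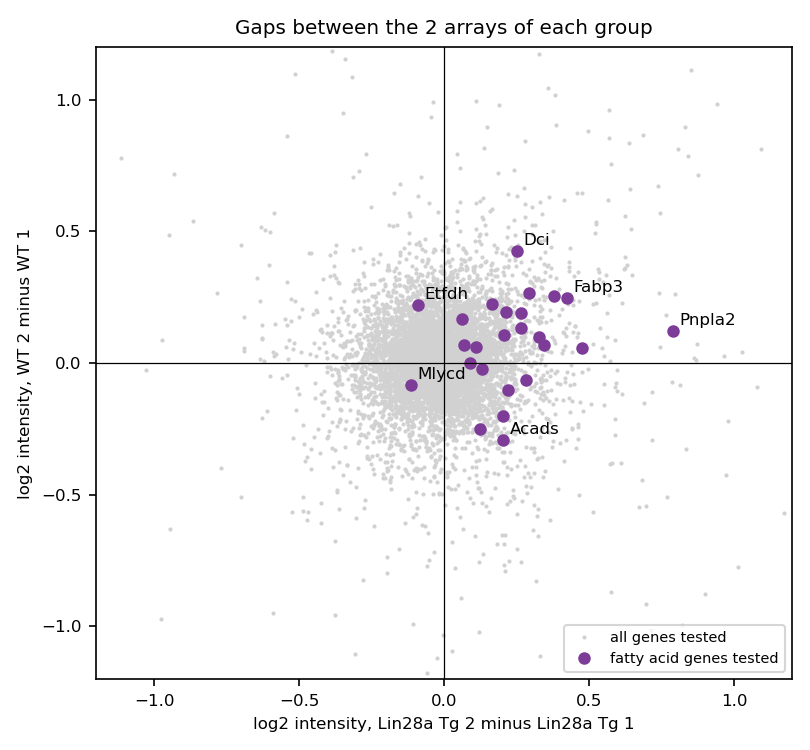
Gap in log2 intensity between the 2 Lin28a Tg arrays (horizontal axis) and the 2 WT arrays (vertical axis) for 25 tested fatty acid genes (purple) and all genes tested (grey; 66 genes lie outside the axes). Of the purple points 23 lie right of 0, and 16 lie in the upper right field.

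The typical member therefore sat low on Lin28a Tg replicate 1 and high on Lin28a Tg replicate 2, with median deviations from its own mean of -0.085 and 0.11, and likewise at -0.053 and 0.070 on WT replicates 1 and 2. Lin28a Tg replicate 1 was the lowest array for 11 members (44%, against 23.2% of all genes) and Lin28a Tg replicate 2 the highest for 15 (60%, against 23.0%). The slow-fibre sums given above have the same order within each group, replicate 2 over replicate 1, but the sizes of the gaps differ. The median log2 gap of the tested slow-fibre genes was 0.168 in the Lin28a Tg pair and 2.06 in the WT pair. For the members it was 0.21 and 0.10. Of 7 tested slow-fibre genes, 5 were brighter on Lin28a Tg replicate 2 (47.6% of all genes) and 6 on WT replicate 2 (53.3%). In the Lin28a Tg pair the rise was mostly Myl3 (370.9 to 1887) and Myl2 (355.7 to 721.5), while Tnnc1 and Atp2a2 fell slightly. The part of slow fibres in the pattern was not tested. Adipocyte sums have that order in the Lin28a Tg pair and the opposite order in the WT pair, and their part was not tested either. Angptl4, Echs1, Acads, Etfa, Etfb, Mlycd, Peci and Ucp3 did not follow the pattern in WT samples, where all of them were brighter on replicate 1.

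With so few arrays, the counts of separated members depended on which array was used. Without Lin28a Tg replicate 1, 15 of 25 members lay above both WT arrays on the remaining one (35.6% of all genes did), and without WT replicate 2, 12 of 25 lay above the remaining WT array (39.9%). Without Lin28a Tg replicate 2, 11 of 25 lay below both WT arrays (31.1% of all genes), and without WT replicate 1, 8 of 25 lay below the remaining WT array (33.9%). The difference of 12 members kept its sign whichever array was left out and under every other alternative in which it was tested. Among them were Angptl4, Echs1, Acsl1, Etfa, Fabp3, Cpt2 and Slc25a20. The share of all genes that kept their sign is not given here, so this count sets the members apart from no other genes.

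**Figure D5:**
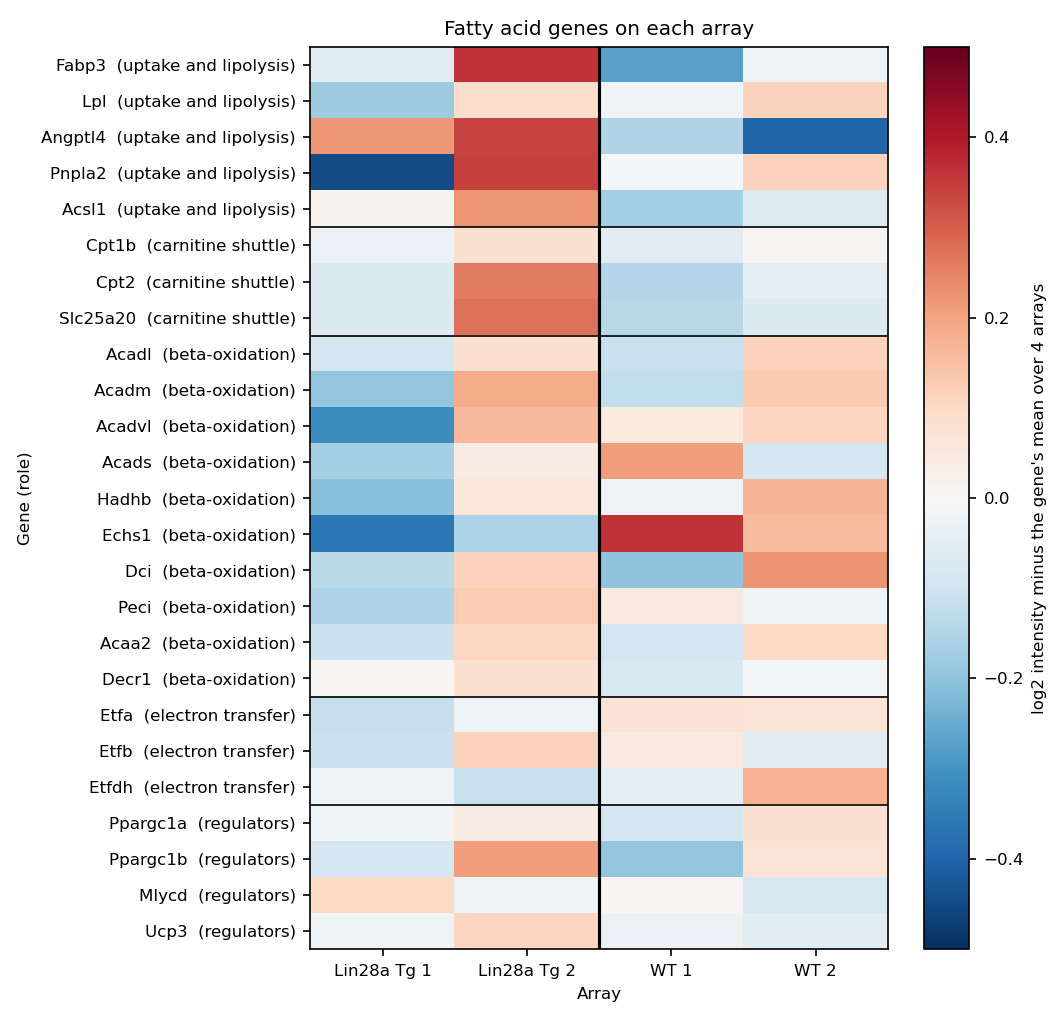
Log2 intensity of each tested gene minus its own mean over the 4 arrays (colour, red above and blue below the mean), with genes in rows by role and Lin28a Tg arrays left of WT arrays. The Lin28a Tg replicate 1 column is mostly blue (lowest array for 11 genes, 44% against 23.2% of all genes) and the Lin28a Tg replicate 2 column mostly red (highest for 15, 60% against 23.0%).

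Further genes of fatty acid metabolism, 69 in a list that adds transport and storage, acyl-CoA handling, other mitochondrial and peroxisomal enzymes, ketone body enzymes and fuel switches, were read in the same way. Of these, 65 had a row and 52 were tested, with a median log2 fold change of -0.018 and 0 passing an adjusted p of 0.05 with limma. Both Lin28a Tg arrays lay above both WT arrays for 6 (11.5%, against 21.7% of all genes) and below for 10 (19.2%, against 16.7%). Pdk4, the kinase that turns off pyruvate dehydrogenase and so spares glucose when fatty acids are burned, read 374.7 and 400.4 in Lin28a Tg samples, against 250.0 and 292.0 in WT samples, without overlap. Its log2 fold change of 0.52 (SE 0.10; adjusted p = 0.486 with limma) was close in size to that of Angptl4.

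Lower values without overlap were seen for Ivd, a dehydrogenase of leucine breakdown, at a log2 fold change of -0.28 (SE 0.065), for the thioesterase Acot13 at -0.21 (SE 0.071) and for the retinoid X receptor gene Rxrg at -0.21 (SE 0.059). Ech1, an isomerase of unsaturated fatty acids related in sequence to Echs1, lay at -0.22 (SE 0.088), also without overlap. The peroxisomal genes Acaa1a and Scp2 had differences of -0.49 and -0.45, which were -0.22 and -0.20 without WT replicate 1, the array on which both were brightest. Acaa1b read 614.3 on that array and 95.2, 129.9 and 95.1 on Lin28a Tg replicates 1 and 2 and WT replicate 2.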

How the data were processed

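Per the labels' protocols, RNA was extracted with Trizol, cleaned with DNase treatment and hybridised as biotin-labelled cRNA to 1 array per sample. The deposited intensities are linear, 1 row for each symbol. Normalization by the authors shows in the values: at equal rank they differ between arrays by a median of 0.0917%. Background was left in, the lowest value being 72.8. Software is not given in the sources used here. Another table was not used, since its 8 value columns match no sample label.

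Symbols of 18091 rows were updated through RefSeq (14090 current, 3066 by an older name, 50 matching several, 885 none); the brightest row was kept per gene. Background was the mode of all values, 84.9, and a gene was tested above 90.2 (mode plus 1.645 SD) on 2 of 4 arrays. The number of arrays limits the precision. Lin28a Tg was compared with WT on log2 intensity by lmFit and eBayes of limma 3.58.1 (R 4.3.3), with Benjamini-Hochberg adjustment over all 7821 genes tested, and the fit was tested on simulated data. Python 3.11.15 and pandas 2.3.3 were also used. Values on every array are given for members without overlap and for the 12 with the smallest p, and for Cd36, Acadm and others where a sentence rests on them. The members and lists were chosen with earlier results of these data known. Alternatives were leaving out each array, normexp with offsets 16 and 50, median centring, adding 16 before the log, testing all genes or those over 94.8 on all 4 arrays, keeping all rows, a trended robust eBayes, a replicate block and a threshold of 0.10.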

Additional observations from a re-analysis of the deposited data

How the results depend on the processing

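No gene of the array passed an adjusted p of 0.05 with limma under any alternative except without WT replicate 2, where 19 did and no member was among them; the range over the 4 fits that leave out 1 array was 0 to 19. With those fits, members lying above numbered 6 to 15 (24% to 60%, against 35.6% to 39.9% of all genes). Members lying below numbered 3 to 11 (12% to 44%, against 30% to 33.9% of all genes). The members' median log2 fold change ran from -0.087 to 0.10. The spread of that median between replicates (SD 0.11) comes from the same gaps between arrays and so cannot judge this range. Median centring left 3 members above (12%, against 19.1% of all genes) and took Etfb to -0.0019. The other alternatives that keep all arrays turned no member's sign. Without 1 array, 13 members turned sign, each with a log2 fold change of at most 0.15 in size when all arrays were used: their ranges were Acaa2 -0.11 to 0.10, Acadl -0.12 to 0.11, Acadm -0.20 to 0.18, Acads -0.27 to 0.020, Acadvl -0.39 to 0.084, Cpt1b -0.0073 to 0.10, Eci1 -0.23 to 0.19, Eci2 -0.17 to 0.11, Etfb -0.10 to 0.12, Lpl -0.22 to 0.040, Pnpla2 -0.50 to 0.29, Ppargc1a -0.069 to 0.096 and Ppargc1b -0.022 to 0.27. The share of all genes that turned sign is not given here. Normexp with an offset of 16 took Angptl4 to 0.82, Acsl1 to 0.37, Ucp3 to 0.23 and Echs1 to -0.57. With the replicate number as a block 0 genes passed and no call changed; the replicate numbers share no stated origin, and same-numbered deviations correlated at 0.037 over all genes and at 0.21 over the 25 members tested. Depth does not apply to arrays; signal near background limits Ucp3, Peci, Acadl and Ppargc1a.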
